A study of Drosophila melanogaster with 4 samples.

Results

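TART and TAHRE are telomeric retrotransposons of Drosophila melanogaster, and their small RNAs were followed here in fly ovaries with and without germline knockdown of Ars2. The members are the rows of the deposited table of repeat copies whose repeat name is TAHRE or begins with TART. They comprise 350 TART, 178 TAHRE and 67 TART_B1 copies, 595 of 137555 rows in all. Every one is classed in the table as a LINE of the Jockey superfamily. The study used 4 small RNA libraries, made from total ovary RNA of 19 to 29 nt cut from a gel. The 2 Ars2KD libraries carried a germline knockdown with the Ars2_sh1 hairpin (Vienna stock 106344), and the 2 wKD libraries a germline knockdown with the white_sh hairpin (stock 30033) as the control, so all 4 carried a germline hairpin. The sources used here give neither the driver nor the age of the flies, and the knockdown is labelled as germline, whereas an ovary also holds somatic follicle cells. The level of Ars2 itself was not measured in these tables, so the knockdown was not checked.

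Drosophila has no telomerase. Its chromosome ends are extended by the non-LTR retrotransposons HeT-A, TART and TAHRE, which attach head to tail at the terminus. HeT-A encodes a Gag-like protein and no reverse transcriptase, TART encodes both, and TAHRE combines HeT-A-like sequence with a reverse transcriptase gene. In the ovarian germline these elements are silenced by piRNAs, small RNAs of about the length counted here that guide Piwi proteins. Ars2 is an RNA-binding partner of the nuclear cap-binding complex. The series title names silencing of telomeric repeats as its subject.

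The table counts reads of 24 to 29 nt at each copy. Its totals for replicates 1 and 2 were 46218 and 169124 in the Ars2KD group, against 64395 and 323180 in the wKD group, so the libraries numbered 2 were deeper in both groups. The miRNA table summed to 653566 and 3681482 in Ars2KD libraries, against 1056475 and 4554667 in wKD libraries. The ovary label was set against miRNA markers: miR-184-3p, a maternal and germline miRNA, took 12% and 47.6% of the miRNA table in Ars2KD, against 11.5% and 35.1% in wKD. The neural miR-124-3p had 0 counts in every library. Reads of muscle miRNAs were present, at 1.06% and 1.63% in Ars2KD, against 0.815% and 1.76% in wKD. Almost all of these reads were miR-1-3p: 6908 (Ars2KD 1), 60086 (Ars2KD 2), 8607 (wKD 1) and 80176 (wKD 2). The other muscle marker, miR-133-3p, was nearly absent, with 11, 5, 0 and 24 reads in the same order. Follicle-cell miRNAs held 14.6% and 9.37% in Ars2KD, against 12.6% and 10.8% in wKD. Single miRNAs of that list differed. Between the libraries numbered 2, miR-989-3p had 305180 reads for Ars2KD and 332069 for wKD, whereas miR-318-3p had 14206 and 92540. Between those numbered 1, miR-989-3p had 45616 and 67845, and miR-318-3p 5172 and 9242, a much narrower gap. The remaining miRNA of the list, miR-994-5p, had 44644 and 56520 at number 1, and 25507 and 65505 at number 2. All of these are raw reads, on the unequal miRNA totals given above. The miR-184-3p share differed more between numbers than between groups, and the part of these markers in the results below was not tested. Since the libraries are bulk samples, fewer cells of a type and less RNA per cell cannot be told apart. Nothing in the labels says that the libraries of one group are separate biological samples. The p-values therefore reflect only how far these libraries scatter, and that scatter may be technical.

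Of the 595 member copies, 27 had a count in any library, and together they held 865 counts. These were 15 TART, 10 TAHRE and 2 TART_B1 copies. The 323 copies on unplaced scaffolds had 0 counts, as did all 8207 repeats there, so only the 272 copies on chromosome arms could be compared. On the arms, 27 of 272 member copies (9.93%) had a count, against 36 of 136 HeT-A copies (26.5%).

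TART reads of piRNA length averaged almost the same in Ars2KD and wKD ovaries. TAHRE reads averaged lower in Ars2KD without passing the test, and of the 4 telomeric families tested HeT-A had the ratio furthest from 0. TART had 59 and 132 counts in Ars2KD, against 78 and 256 counts in wKD. After scaling, these were 1183 and 864 CPM in Ars2KD, against 1098 and 941 CPM in wKD. The groups overlapped almost completely, with means of 1023 ± 225 CPM in Ars2KD, against 1020 ± 112 CPM in wKD (SD, n = 2 each). The log2 ratio, Ars2KD over wKD, was -0.00 (SE 0.348, 95% interval -0.75 to 0.75, edgeR quasi-likelihood adjusted p = 0.994), and a change within that interval in either direction could not be detected with these libraries.

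TAHRE had 21 and 76 counts in Ars2KD, against 39 and 193 counts in wKD. Scaled levels were 421 and 497 CPM in Ars2KD, against 549 and 709 CPM in wKD. Both Ars2KD libraries lay below both wKD libraries. The means were 459 ± 54.1 CPM in Ars2KD, against 629 ± 113 CPM in wKD (SD, n = 2 each), and the log2 ratio was -0.45 (SE 0.435, 95% interval -1.39 to 0.48, edgeR adjusted p = 0.922). Of the 2 member families tested, 0 passed. Among all 135 families tested, 0.741% were called higher in Ars2KD and 0% lower at an adjusted p under 0.05, and 16 passed an unadjusted p under 0.05 (6 higher, 10 lower). Groups that do not overlap, lower in Ars2KD, occurred in 17% of the 135 families, so TAHRE's separation is not a result about TAHRE.

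TART_B1 is the smallest family and failed the filter on low counts. It had 3 and 6 counts in Ars2KD, against 2 and 0 counts in wKD, of which 10 lay in 1 copy. Before TMM scaling, the 3-count floor corresponds to 64.9 and 17.7 CPM in Ars2KD, against 46.6 and 9.28 CPM in wKD. All 4 values lie within a few counts of that floor, so no fold is given.

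For comparison, HeT-A had 195 and 552 counts in Ars2KD, against 719 and 2295 counts in wKD. Its CPM was 3909 and 3613 in Ars2KD, against 10126 and 8433 in wKD. The groups did not overlap, but the log2 ratio of -1.30 with SE 0.301 missed the threshold (edgeR adjusted p = 0.0558), while the DESeq2 test passed it (adjusted p = 0.00708). HETRP, the subtelomeric satellite repeat, had 722 and 1041 CPM in Ars2KD, against 1253 and 1694 CPM in wKD. Its log2 ratio was -0.73 (SE 0.345, edgeR adjusted p = 0.369).

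**Figure D1:**
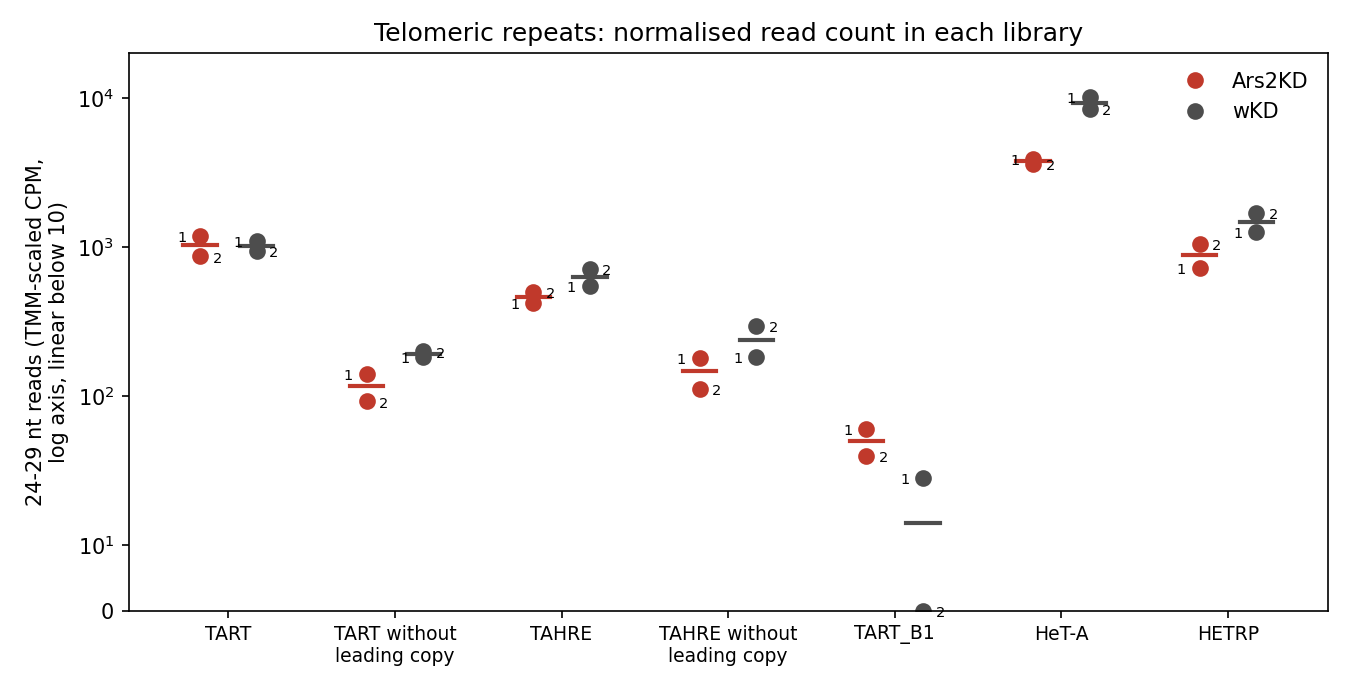
Normalised read count (TMM-scaled CPM, log axis that is linear below 10) of each telomeric repeat family, with one point for each library (numbers 1 and 2) and a bar for the mean of each group, Ars2KD in red at the left and wKD in grey at the right. TART overlaps between groups at 864 to 1183 CPM, whereas the 2 HeT-A levels in Ars2KD (3613 and 3909 CPM) lie below both in wKD.

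The TART total rested on 1 copy. The copy on chromosome 4 (dm6 4:1277575-1281474, 3900 bp) held 437 of the 525 TART counts, 83.2%. Its counts were 52 and 118 in Ars2KD, against 65 and 202 in wKD, which is 88.1% and 89.4% of TART in Ars2KD, against 83.3% and 78.9% in wKD. The exact 95% binomial intervals of those shares were 77.1% to 95.1% and 82.9% to 94.1% in Ars2KD, against 73.2% to 90.8% and 73.4% to 83.7% in wKD, and cover counting error only. The shares overlap in these intervals, except that Ars2KD 2 and wKD 2 do so only narrowly. The CPM of the copy was 1018 and 769 in Ars2KD, against 968 and 722 in wKD. These overlap, and the log2 ratio was 0.08 with SE 0.555 (edgeR adjusted p = 0.999).

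The name of this copy goes against the gene annotation. In the Ensembl annotation of the dm6 assembly all 3900 bp of it lie under HeT-A insertions, the largest at 4:1278430-1281474 on the minus strand, and 0 bp under TART. It is called the leading TART copy below because the repeat table so names it, and which name is right cannot be told apart from these tables. Counted as HeT-A, an alternative chosen after seeing the data, it would leave TART at -0.78 on the log2 scale with SE 0.824 (edgeR adjusted p = 0.917) and HeT-A with -1.11 (edgeR adjusted p = 0.152). Over all members, 55.3% of counts (478) lay at copies annotated as HeT-A, 2.66% (23) at copies annotated as TART, and 42.1% (364) at copies under neither. The annotation names 14 TART elements and 0 TAHRE elements.

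Without its leading copy, few TART counts were left. The remaining counts were 7 and 14 in Ars2KD, against 13 and 54 in wKD, or 140 and 91.6 CPM in Ars2KD, against 183 and 198 CPM in wKD. The groups did not overlap, at 116 ± 34.4 CPM in Ars2KD, against 191 ± 10.9 CPM in wKD (SD, n = 2 each), but 17% of all families tested were likewise separate and lower in Ars2KD. With the most counted copy of every family left out, the log2 ratio of TART was -0.69 (SE 0.915), which did not pass the edgeR test (adjusted p = 0.892). Between libraries numbered 1 the ratio was -0.38 (95% counting interval -1.95 to 1.05), and between those numbered 2 it was -1.12 (-2.08 to -0.25).

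The longest TART copies held almost no reads. The 5 placed copies of at least 10000 bp, 2 on chromosome 4 (10858 bp each) and 3 on X (11095, 10229 and 10393 bp), had 6 counts together, between 0 and 4 each. The pair on chromosome 4 lies in the annotated TART-A elements at 4:1320141-1332489 and 4:1333119-1345424, and had 1 count each, both in wKD 2. HeT-A copies in the same arrays were counted unevenly, from 10 to 693 counts among the 6 on chromosome 4 and from 0 to 905 among the 15 on X. The most counted one on chromosome 4, at 4:1314345-1320140 and adjoining the first of these elements, had 50 and 47 counts in Ars2KD, against 197 and 399 counts in wKD. The 2 chromosome 4 copies have the same length, and the sources used here do not say how reads matching several places were counted.

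The leading copy of TAHRE took a smaller share of its family than that of TART. It lies at the right end of 2R (2R:25268654-25275151, 6498 bp), 11785 bp from the outermost repeat of the arm, and held 210 of 329 TAHRE counts, 63.8%. It had 12 and 59 counts in Ars2KD, against 26 and 113 counts in wKD, or 235 and 385 CPM in Ars2KD, against 387 and 404 CPM in wKD. The groups do not overlap, but only by a margin of about 2 CPM between Ars2KD 2 and wKD 1. The log2 ratio was -0.33 (SE 0.627, edgeR adjusted p = 0.999). This copy lies between HeT-A copies and has no annotated gene or element over it. Without it, TAHRE had 180 and 111 CPM in Ars2KD, against 183 and 294 CPM in wKD, so no Ars2KD library exceeded a wKD library. The margin between Ars2KD 1 and wKD 1 was narrow, at 9 against 13 counts. Of all families tested, 17% were likewise separate and lower in Ars2KD. With the most counted copy of every family left out, TAHRE did not pass (log2 ratio -0.72, SE 0.799, edgeR adjusted p = 0.892).

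The remaining named TAHRE copies lay on 3L and X. The copy at 3L:25229951-25230546 (596 bp), not in an annotated gene and 6394 bp from lovit, had 4 and 7 reads in the Ars2KD libraries, against 5 and 39 in the wKD libraries. The copy at X:114038-116407 (2370 bp) is covered by annotated HeT-A insertions over its whole length and had 5 and 2 reads in the Ars2KD libraries, against 7 and 26 in the wKD libraries. Their log2 ratios were -0.88 (SE 0.998) and -1.01 (SE 1.27), and neither passed the edgeR test (adjusted p = 0.999 for each). On the CPM scale the 3L copy had 78.3 and 45.6 in Ars2KD, against 74.5 and 139 in wKD, and the X copy 97.9 and 13.0 in Ars2KD, against 104 and 92.9 in wKD. wKD 2 stood apart at the 3L copy and Ars2KD 2 at the X copy, and the groups overlapped at both. A longer TAHRE copy at X:71675-79342 (7668 bp) had 0 and 4 counts in Ars2KD, against 1 and 7 counts in wKD.

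Of the 4 member copies that passed the filter on low counts (the leading TART copy and these first 3 TAHRE copies), 0 were called in the test over 1625 copies, where 0.0615% were higher and 0% lower. 35 copies were higher and 34 lower at an unadjusted p under 0.05. Only the 2R copy had groups that did not overlap, as did 17.7% of all copies tested, lower in Ars2KD. The other 23 counted member copies were too low to be tested.

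**Figure D2:**
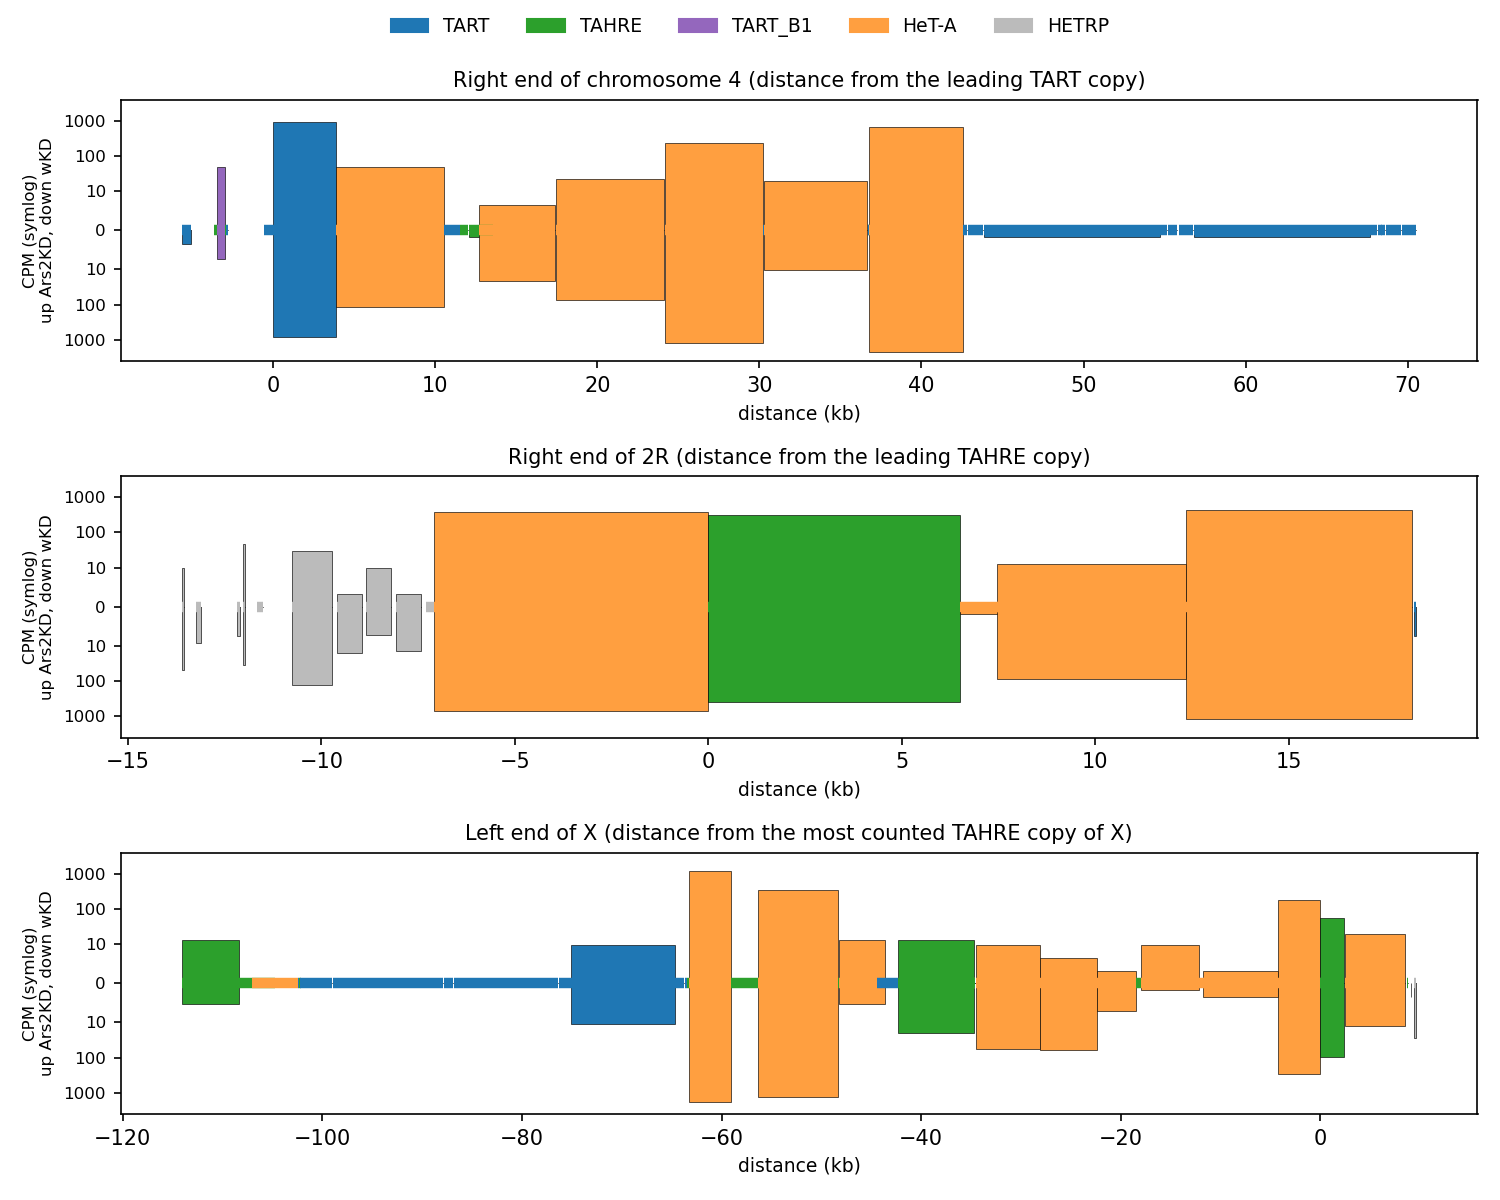
Telomeric repeat copies at the right end of chromosome 4, the right end of 2R and the left end of X, with distance in kb from the start of a named TART or TAHRE copy on the horizontal axis and the mean CPM of the 2 libraries of each group on a symmetric log axis (linear near 0), Ars2KD upward and wKD downward. Of the 5 long TART copies (blue), 4 lie at or near 0 and 1 on X, with 4 counts, is visible, while the leading TART copy, the leading TAHRE copy (green) and several HeT-A copies (orange) are tall in both groups.

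The remaining named TART copies lay on the Y chromosome, which ovaries of XX females lack. The copy at Y:2899275-2900773 had 0 and 5 reads in the Ars2KD libraries, against 3 and 22 in the wKD libraries. The 105 bp copy at Y:3401961-3402065 had 3 and 5 in Ars2KD, against 0 and 12 in wKD, and the copy at Y:2919780-2922694 had 0 and 1 in Ars2KD, against 6 and 9 in wKD. All 3 had their highest count in wKD 2, the deepest library. Testis-biased miRNAs held 0.0213% and 0.00747% of miRNA counts in Ars2KD libraries, against 0.0234% and 0.0121% in wKD libraries, and their part in the Y counts was not tested. The 10 counted member copies on Y held 74 of the 865 counts. Leaving out all Y copies, an alternative chosen after seeing the data, gave TART a log2 ratio of 0.13, with the sign turned.

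Pooled over the members, counts per kb were lower on Y than at arm ends or in the interior, where few copies held most counts. This did not hold on every chromosome. TART alone had 0.708 counts per kb on Y, against 0.120 on X and 13.1 on chromosome 4. The 177 member copies on Y had 0.513 counts per kb. The 56 member copies within 150 kb of the outermost repeat of an arm held 726 counts at 12 copies, a mean of 6.80 counts per kb, and the leading TART and TAHRE copies held 437 and 210 of them. The 39 interior copies held 65 counts at 5 copies, 7.49 per kb, and the 3L TAHRE copy held 55 of them. At arm ends TAHRE had 8.43 counts per kb summed over the 4 libraries and TART 446 counts over 74353 bp, against 30.8 counts per kb for HeT-A. Of 124 placed member copies that share name and length with another copy, 4 had a count, against 23 of 148 that do not. The sharing copies were shorter, with a median of 194 bp against 591 bp, and the part of length was not tested.

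Ratios were also taken between libraries of the same number. TART's log2 ratio, Ars2KD over wKD, was 0.11 (95% counting interval -0.41 to 0.61) in the libraries numbered 1 and -0.12 (-0.44 to 0.19) in those numbered 2. TAHRE's was -0.38 (-1.22 to 0.42) and -0.51 (-0.91 to -0.12). Of these 4 intervals, that of TAHRE in the libraries numbered 2 did not reach 0. The HeT-A ratios, -1.37 and -1.22, lay further below 0 than those of the whole TART and TAHRE families at both numbers. For TAHRE this depended on its leading copy. Without that copy its ratio was -0.02 (-1.43 to 1.32) in the libraries numbered 1. In those numbered 2 it was -1.40 (-2.25 to -0.63), below that of HeT-A. These intervals cover counting error only.

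**Figure D3:**
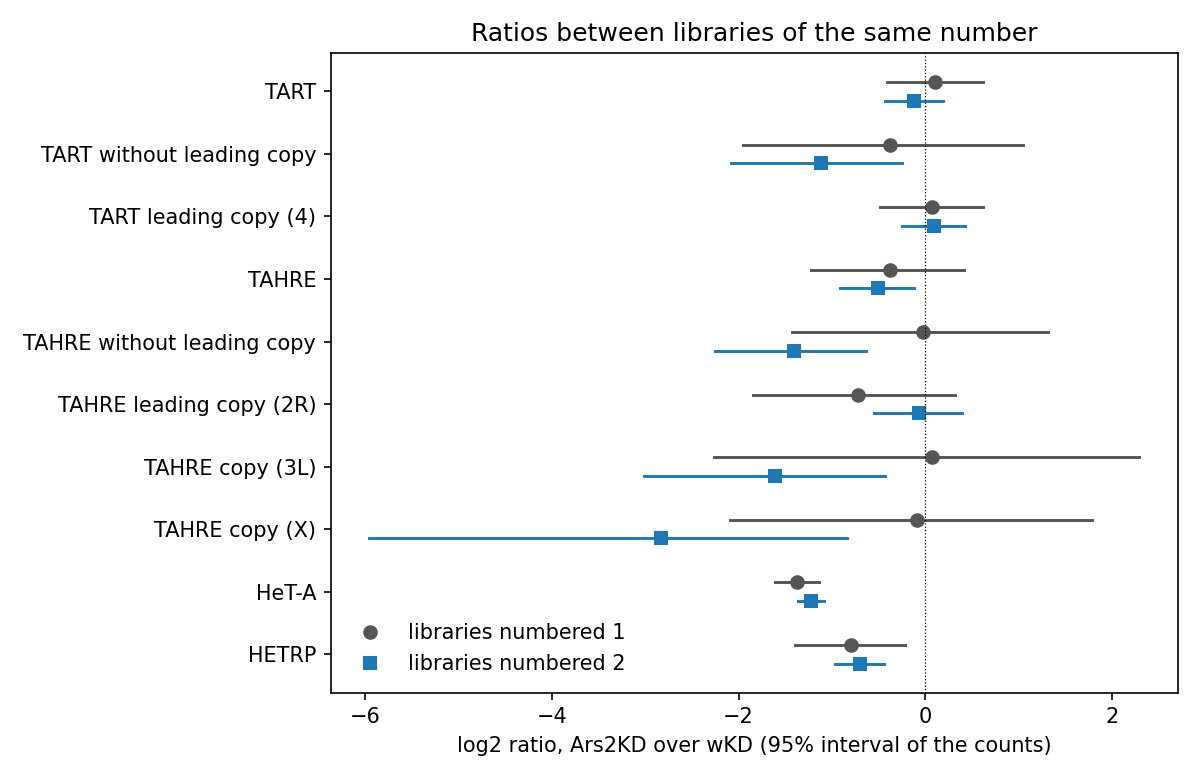
log2 ratio of Ars2KD to wKD between the libraries numbered 1 (grey circles) and 2 (blue squares) for each family or copy, with the 95% interval of the counts as a line and a dotted line at 0. TART, its leading copy and TAHRE as a whole family lie nearer to 0 than HeT-A, whose ratios are -1.37 and -1.22. Without its leading copy, TAHRE had ratios of -0.02 and -1.40.

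Relative to HeT-A in the same library, TART and TAHRE were both higher in each Ars2KD library than in either wKD library. HeT-A itself had the lowest log2 ratio, -1.30, of the 35 LINE families tested, whose median was 0.08. A rise relative to HeT-A was therefore not particular to TART and TAHRE. TART reads amounted to 0.303 and 0.239 of HeT-A reads in Ars2KD, against 0.108 and 0.112 in wKD. The groups did not overlap, with a log2 difference of 1.29 (exact permutation test, two-sided p = 0.333, the smallest that 2 against 2 allow). TAHRE amounted to 0.108 and 0.138 of HeT-A in Ars2KD, against 0.0542 and 0.0841 in wKD, giving a log2 difference of 0.85 (exact permutation test, two-sided p = 0.333). TAHRE to TART was 0.356 and 0.576 in Ars2KD, against 0.5 and 0.754 in wKD (exact permutation test, p = 0.667), and overlapped. After Benjamini-Hochberg adjustment over these 3 ratios, p was 0.5, 0.5 and 0.667. The first 2 ratios share their HeT-A counts and are not independent.

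Within numbers, the TART to HeT-A ratio in Ars2KD was 2.79 times that in wKD (95% counting interval 1.88 to 4.11) for libraries numbered 1 and 2.14 times (1.69 to 2.71) for those numbered 2. For TAHRE to HeT-A the folds were 1.98 (1.08 to 3.55) and 1.64 (1.22 to 2.18). The members therefore held a larger share of all TART, TAHRE, TART_B1 and HeT-A reads in Ars2KD: 29.9% and 27.9%, against 14.2% and 16.4% in wKD. Their exact binomial intervals were 24.5% to 35.6% and 24.8% to 31.3% in Ars2KD, with upper limits of 16.8% and 17.8% in wKD. Set against all families that are not telomeric, in place of HeT-A, the log2 difference was 0.02 for TART and -0.41 for TAHRE. The TART to HeT-A difference was smaller under both changes to the leading copy that were tried, each chosen after seeing the data. With that copy counted as HeT-A the log2 difference was 0.36 and the groups overlapped (exact permutation test, p = 0.667). With the most counted copies of TART and TAHRE left out it was 0.55 and the groups did not overlap, at 0.0359 and 0.0254 in Ars2KD, against 0.0181 and 0.0235 in wKD (exact permutation test, p = 0.333). For TAHRE to HeT-A leaving out its leading copy gave 0.0462 and 0.0308 in Ars2KD, against 0.0181 and 0.0349 in wKD, which overlap (log2 difference 0.59, exact permutation test, p = 0.667). With all copies, the TAHRE to HeT-A difference was 0.53 without wKD 1 and 1.17 without wKD 2.

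**Figure D4:**
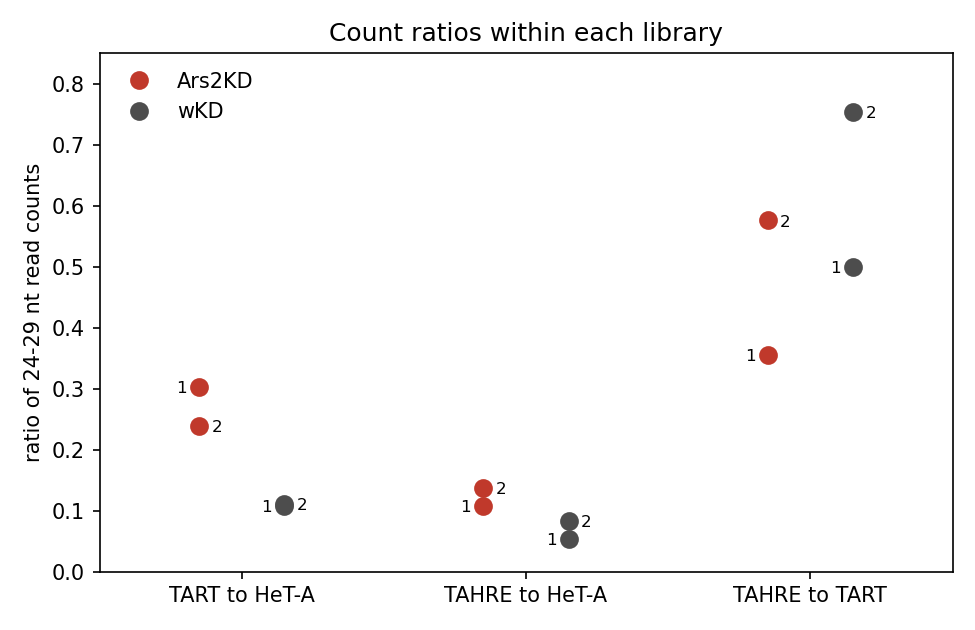
Ratio of 24 to 29 nt read counts between telomeric families in each library, Ars2KD at the left in red and wKD at the right in grey, with the library number beside each point. TART to HeT-A is 0.239 and 0.303 in Ars2KD and 0.108 and 0.112 in wKD.

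Against the other LINE families, TART and TAHRE stood near the middle and toward the low end of the order. Of 35 LINE families tested, 1 passed as higher in Ars2KD (jockey, LINEJ1_DM, log2 ratio 2.48, edgeR adjusted p = 0.000335) and 0 as lower. Of the 3160 jockey counts, 1764 lay at 1 copy on 2L. With the most counted copy of every family left out, jockey did not pass. Without wKD 1, 0 families passed as higher. Their median log2 ratio was 0.08, and 21 of them lay above 0. Counted from the lowest ratio, HeT-A was number 1, TAHRE number 4 and TART number 14. Without the telomeric families, 32 LINE families had a median of 0.18. Per kb of annotated copy placed on arms, Y included, TART had the lowest mean level of the 35 families tested in both groups. It had 5.67 CPM per kb in Ars2KD and 5.65 CPM per kb in wKD. TAHRE was the next lowest, at 6.06 and 8.30 CPM per kb. LINE families that failed the filter on low counts are not in this order. Among those, DOC6_DM had 37 counts over 55445 bp, against 525 counts over 180447 bp for TART. Y copies made up 100330 of the 180447 bp of TART and 42193 of the 75773 bp of TAHRE. The order of families without Y, which ovaries of XX females lack, was not tested.

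**Figure D5:**
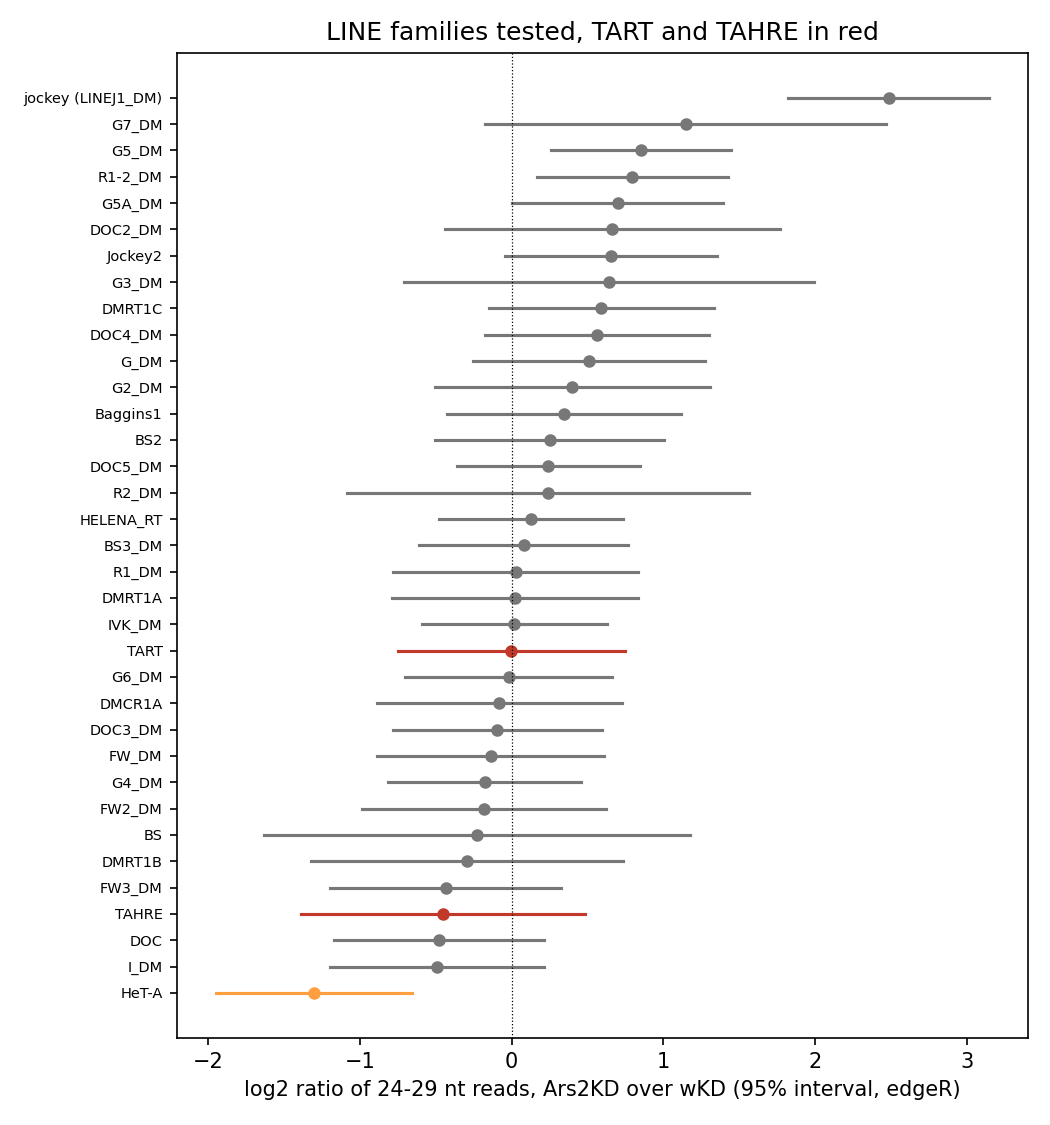
log2 ratio of Ars2KD to wKD for each of the 35 LINE families tested, ordered by ratio, with 95% intervals from edgeR. TART (-0.00) and TAHRE (-0.45) are drawn in red and HeT-A (-1.30) in orange. Only jockey lies apart at the top (2.48).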

How the data were processed

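Raw counts of 24 to 29 nt reads per repeat copy and of miRNAs were deposited by the authors and used unchanged. Trimmomatic, Bowtie2 and featureCounts, beside FastQC, are named with dm6 in the submitters' processing notes. The sources used here do not give mapping settings, strand or the treatment of reads with several positions, which leaves counts of similar copies uncertain. Number of table columns not used: 0.

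Copies were summed to 169 named families and tested by the quasi-likelihood test of edgeR 4.0.16 (R 4.3.3), with filterByExpr by group, TMM scaling and no replicate block. A Benjamini-Hochberg adjusted p under 0.05 was called, over 135 families and, separately, 1625 copies. Levels are TMM-scaled CPM. limma 3.58.1 (voom) and DESeq2 1.42.0 served as alternatives. Ratios within a library were compared on the log2 scale by a two-sided exact permutation test. Intervals of family ratios come from the edgeR fit and include the scatter between libraries. Intervals of shares and of ratios between single libraries are exact (95%) and, like the floor of 3 counts, cover counting error only. The fits were tested on simulated counts first.

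Coordinates are 1-based dm6 positions from the table, compared with the Ensembl annotation of that assembly. The members, lists and tests were chosen with earlier results of these data known. Member copies with at least 10 counts are named, with HeT-A and HETRP as the other telomeric repeats. A check of all 6 library pairs found that none repeats another (chi-square per degree of freedom 14.9 to 90.2). Exact tests used scipy 1.17.1, with numpy 2.4.6 and pandas 2.3.3. Figures used matplotlib 3.10.9.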

Additional observations from a re-analysis of the deposited data

How the results depend on the processing

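Of 154 alternative ratios and differences, 142 kept their direction, and 5 of these, all of HeT-A, newly passed the threshold. Of 66 alternative counts of calls, 40 stayed close to the main count. Both totals include the use of only copies on chromosome arms. That alternative could not change any value, because repeats on unplaced scaffolds had 0 counts. TART, at -0.00, turned its sign to 0.0012 with DESeq2 size factors, 0.00036 with the DESeq2 test, 0.033 with the total of the repeat table and 0.13 without Y copies, and ranged from -0.19 to 0.22 with each library left out in turn. TAHRE stayed below 0, from -0.72 to -0.25, and passed in no alternative (adjusted p 0.366 to 0.999). The leading TART copy turned to -0.080 with no filter and ranged from -0.21 to 0.27 with each library left out. TAHRE relative to all families without the telomeric ones, in place of HeT-A, gave a log2 difference of -0.41. TAHRE to TART turned to 0.30 with the leading TART copy counted as HeT-A and 0.038 without the most counted copies. HeT-A passed the threshold with DESeq2 (-1.30, adjusted p = 0.00708), limma-voom (-1.29), no filter (-1.34), and without the most counted copy of each family (-1.50). It did not pass the edgeR test with DESeq2 size factors (adjusted p = 0.0862) or among copies of at least 200 bp (0.170). Nor did it pass with the total of the repeat table (0.354), of both tables (0.969) or of the miRNA table (0.979). Its ratio ranged from -1.43 to -1.13 with each library left out in turn.

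Families called higher numbered 0 to 2 with each library left out (0 without wKD 1), 0 among copies of at least 200 bp, and 2 without the most counted copies. Families called lower numbered 1 with DESeq2, limma-voom and without the most counted copies, 3 with no filter, and 0 to 1 with each library left out. Copies called higher numbered 2 with the total of the repeat table, of both tables or of the miRNA table and without Y copies, 4 with DESeq2 and with no filter, 0 among copies of at least 200 bp, and 0 to 3 with each library left out. Copies called lower numbered 3 with DESeq2 and 4 with no filter. Totals of both tables and of miRNAs moved the median of all families to -0.15 and -0.16, against -0.02. The cause of these changes was not tested.

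The labels give the libraries numbers 1 and 2 but no shared batch. Deviations of same-numbered libraries correlated by 0.665 over families, a hint from the data only. With the number as a replicate block, TART was -0.02, TAHRE -0.46 (adjusted p = 0.365) and HeT-A -1.29 (adjusted p = 0.0105). Under this pairing, 1 family was called higher and 2 lower, and 24 copies higher and 46 lower, with no member copy among them. TART_B1 has a value only with no filter, 2.51 (SE 2.30). The low counts limit every copy but the leading TART and TAHRE copies.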

Other observations

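A TART copy in a gene, chosen after its values were seen and for its annotation, lies at 3L:16576994-16577693 (700 bp, an annotated TART-A element). Of its length, 614 bp are coding sequence and 13 bp the 3′ UTR of nxf2, a member of the RNA export factor family that acts with Panoramix in piRNA-guided nuclear silencing. It had 3 and 2 counts in Ars2KD, and 0 and 2 counts in wKD. With 7 counts in all, no difference was detectable at this depth, and reads of the gene and of the element cannot be told apart. A TART copy and a TART_B1 copy in nej, which encodes a histone acetyltransferase, had 1 count each, both in wKD 1.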
